A study of Mus musculus with 5 samples.

Results

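The genes described here are 10 transcripts of the granules and cytosol of neutrophils, grouped by the maturation stage at which a neutrophil precursor makes them. They are the azurophil granule genes Elane, Mpo, Prtn3 and Ctsg, and the later genes Ltf, Lcn2, Camp and Ngp of the specific granule and S100a8 and S100a9 of the cytosol. The 10 were named by the question and looked up by their identifiers among the 30046 features in the counts, and all 10 passed the filter on low values among 10093 genes tested. They were measured by bulk RNA-seq in marrow stromal cells that had high Cxcl12-GFP and tdTomato, sorted from femurs at P21 (postnatal day 21) after 3 mg of tamoxifen at E12.5 (embryonic day 12.5). The 3 libraries of Dlx5CE-E12.5 cells came from mice carrying Cxcl12(GFP/+), Dlx5(CreER/+) and R26R(tdTomato/+). The 2 libraries of Fgfr3CE-E12.5 cells came from mice with Cxcl12(GFP/+), Fgfr3-iCreER and R26R(tdTomato/+), and the labels number them 2 and 3. GFP in place of an allele of Cxcl12 is thus shared by both groups, and there is no group without tamoxifen or without the tdTomato reporter. The Dlx5 driver was active in the fetal perichondrium and the Fgfr3 driver in fetal chondrocytes at the pulse. Cells of littermates were pooled, from 4 mice in each group.

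Neutrophils are short-lived phagocytes that are made in the bone marrow and store their weapons in granules. Granule proteins are sorted largely by the time of their synthesis: promyelocytes make the serine proteases and myeloperoxidase of the azurophil granules, and myelocytes and metamyelocytes then make lactoferrin and the other contents of the specific granules. Gelatinase granules follow in band cells, and the calprotectin subunits S100a8 and S100a9 fill the cytosol of maturing cells. Transcripts of the azurophil genes are lost as these cells mature, so the balance between the sets is commonly read as a sign of how mature a neutrophil population is. Most of these genes are known chiefly from myeloid cells, but Lcn2 is also made by osteoblasts and fat cells. Because the libraries are bulk samples, fewer cells of a type and less RNA per cell cannot be told apart.

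Total counts were 22035650 to 32563758 in the Dlx5CE-E12.5 libraries and 56355203 to 58166285 in the Fgfr3CE-E12.5 libraries, at which 3 counts equal 0.0516 to 0.136 CPM (counts scaled to the size of the library). By the study's methods the Dlx5CE-E12.5 libraries were read as paired ends on a NovaSeq and the Fgfr3CE-E12.5 libraries as single ends on a HiSeq, so that sequencing and lineage cannot be told apart, whereas the series description names a HiSeq for both groups. Transcripts that define the sorted stroma were abundant, with Cxcl12 at 22364 to 23577 CPM in Dlx5CE-E12.5 cells and at 6104 to 8488 CPM in Fgfr3CE-E12.5 cells. Over all tested genes the log2 fold change had a median of 0.01. It was 0.19 when libraries were scaled by their size alone, and the directions of the 10 genes were the same.

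The promoters are shown for the short sequences they hold for the transcription factors of granulopoiesis. Whether the azurophil and later genes differ in them was not tested. C/EBP factors drive the specific granule program and PU.1 is the master regulator of myeloid cells, while RUNX and MYB factors act in early precursors. RefSeq's GRCm38.p6 windows were found for 10 of 10 genes, and the 250 bases before each start were searched on both strands for 4 motifs, spelled TTGCNNAA (C/EBP), GAGGAA (PU.1), TGTGGT (RUNX) and TAACNG (MYB), no match of which overlapped another. The C/EBP letters were in 0 of 4 azurophil promoters and in 4 of 6 later ones (Ltf, Lcn2, Ngp and S100a9), against 9.56% of 32851 promoters. The PU.1 letters were in 4 of 4 azurophil promoters and in 3 of 6 later ones (Ltf, Lcn2 and S100a8), against 23.3%. The MYB letters were in 2 azurophil promoters (Elane and Mpo) and in none of the 6 later ones, against 19.8%, and the RUNX letters were in Ctsg and S100a9, against 14.0%. These matches describe the letters of the windows and not binding. The windows of Prtn3 and Lcn2 lie wholly within the annotated gene, and so do their counted matches. The part of the window that lies upstream of the annotated gene start is printed for 5 genes with their matches in capitals, 5′ to 3′ on the gene's strand, at chr10:79886062-79886246 on the plus strand for Elane, chr14:56102575-56102824 on the minus strand for Ctsg, chr9:111019042-111019270 on the plus strand for Ltf, chr9:110419558-110419746 on the plus strand for Ngp and chr3:90695722-90695971 on the minus strand for S100a9 (GRCm38). The capitals are PU.1 letters in Elane, PU.1 then RUNX letters in Ctsg, PU.1 then C/EBP letters in Ltf, C/EBP letters in Ngp, and C/EBP then RUNX letters in S100a9. The MYB match of Elane and a further C/EBP match of Ngp lie downstream of the stretches printed.
Elane: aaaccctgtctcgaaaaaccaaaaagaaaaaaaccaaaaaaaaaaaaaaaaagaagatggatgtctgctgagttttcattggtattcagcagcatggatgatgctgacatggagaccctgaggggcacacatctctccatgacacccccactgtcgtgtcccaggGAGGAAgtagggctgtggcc
Ctsg: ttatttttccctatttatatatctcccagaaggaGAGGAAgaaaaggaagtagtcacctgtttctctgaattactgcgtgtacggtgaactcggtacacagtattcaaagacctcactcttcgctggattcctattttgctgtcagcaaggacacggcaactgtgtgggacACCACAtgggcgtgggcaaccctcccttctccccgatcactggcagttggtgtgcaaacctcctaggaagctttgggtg
Ltf: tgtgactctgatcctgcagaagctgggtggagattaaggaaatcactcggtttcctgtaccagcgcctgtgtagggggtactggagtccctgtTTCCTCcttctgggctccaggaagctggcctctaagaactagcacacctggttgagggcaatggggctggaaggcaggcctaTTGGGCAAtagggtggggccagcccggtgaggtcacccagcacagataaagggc
Ngp: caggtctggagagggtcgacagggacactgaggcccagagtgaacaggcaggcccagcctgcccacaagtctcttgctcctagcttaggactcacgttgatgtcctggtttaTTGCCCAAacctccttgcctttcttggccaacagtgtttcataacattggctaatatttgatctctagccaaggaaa
S100a9: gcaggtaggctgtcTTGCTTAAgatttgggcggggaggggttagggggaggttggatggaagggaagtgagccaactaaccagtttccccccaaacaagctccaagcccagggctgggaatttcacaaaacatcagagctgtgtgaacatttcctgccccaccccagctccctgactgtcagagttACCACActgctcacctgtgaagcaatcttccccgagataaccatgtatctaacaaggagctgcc

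Azurophil granule transcripts were present in every library, and 3 of the 4 were higher in Fgfr3CE-E12.5 cells. Elane, Mpo and Prtn3 rose by 3.28 to 3.57 times, and Ctsg did not pass the test. Of all tested genes, 16.4% were called higher by the same rule, a fold above 1 on the log2 scale with an adjusted p under 0.05 (quasi-likelihood F test of edgeR, adjusted by Benjamini-Hochberg over 10093 genes). Levels are CPM normalized by edgeR's TMM factors, and each log2 fold change is Fgfr3CE-E12.5 over Dlx5CE-E12.5 with its standard error (SE).

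Elane encodes neutrophil elastase, a serine protease that degrades microbial and matrix proteins, and lies in 5 exons at chr10:79886247-79888215 (plus strand). Its level was 260, 180 and 131 CPM in Dlx5CE-E12.5 replicates 1, 2 and 3, and 421 and 843 CPM in Fgfr3CE-E12.5 replicates 2 and 3. Both Fgfr3CE-E12.5 libraries were above all Dlx5CE-E12.5 libraries, and replicate 1 was the highest of the latter. The means were 190 ± 65.5 CPM (SD, n = 3) and 632 ± 298 CPM (SD, n = 2), with a log2 fold change of 1.73 (SE 0.36, adjusted p = 0.00748, edgeR).

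Mpo encodes myeloperoxidase, which makes hypochlorous acid from hydrogen peroxide and is the most abundant protein of the azurophil granule, in 14 exons at chr11:87793581-87804413 (plus strand). Mpo was at 930, 671 and 404 CPM in the Dlx5CE-E12.5 libraries and at 1626 and 3147 CPM in the Fgfr3CE-E12.5 libraries, again with no overlap. Its mean went from 669 ± 263 CPM (SD, n = 3) to 2386 ± 1076 CPM (SD, n = 2), a log2 fold change of 1.84 (SE 0.40, adjusted p = 0.00824, edgeR). The counting strand is not given in the sources used here, and 9.46% of the 50-base windows of Mpo are shared with the antisense gene Gm11505, so a small part of its counts is uncertain.

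Prtn3 encodes proteinase 3, a protease closely related to elastase and its neighbour on the chromosome, in 5 exons at chr10:79874476-79883174 (plus strand). Its values were 71.1, 54.7 and 41.9 CPM against 99.2 and 267 CPM, so the lower Fgfr3CE-E12.5 library was above the highest Dlx5CE-E12.5 library by less than the gap between the Fgfr3CE-E12.5 libraries. The log2 fold change was 1.71 (SE 0.40, adjusted p = 0.012, edgeR), and 6.45% of its windows are shared with Plppr3 on the opposite strand.

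Ctsg encodes cathepsin G, a chymotrypsin-like protease, in 5 exons at chr14:56099881-56102574 (minus strand). It was at 40.5, 26.2 and 16.1 CPM in Dlx5CE-E12.5 cells and at 38.5 and 104 CPM in Fgfr3CE-E12.5 cells. The groups overlapped, since Fgfr3CE-E12.5 replicate 2 was below Dlx5CE-E12.5 replicate 1. Its log2 fold change of 1.37 (SE 0.48, adjusted p = 0.0524, edgeR) missed the threshold, and it passed under 7 of 17 alternatives. It passed without Dlx5CE-E12.5 replicate 1 (1.76) or Fgfr3CE-E12.5 replicate 2 (1.92), and not without Dlx5CE-E12.5 replicate 2 (1.34), Dlx5CE-E12.5 replicate 3 (1.10) or Fgfr3CE-E12.5 replicate 3 (0.48).

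**Figure D1:**
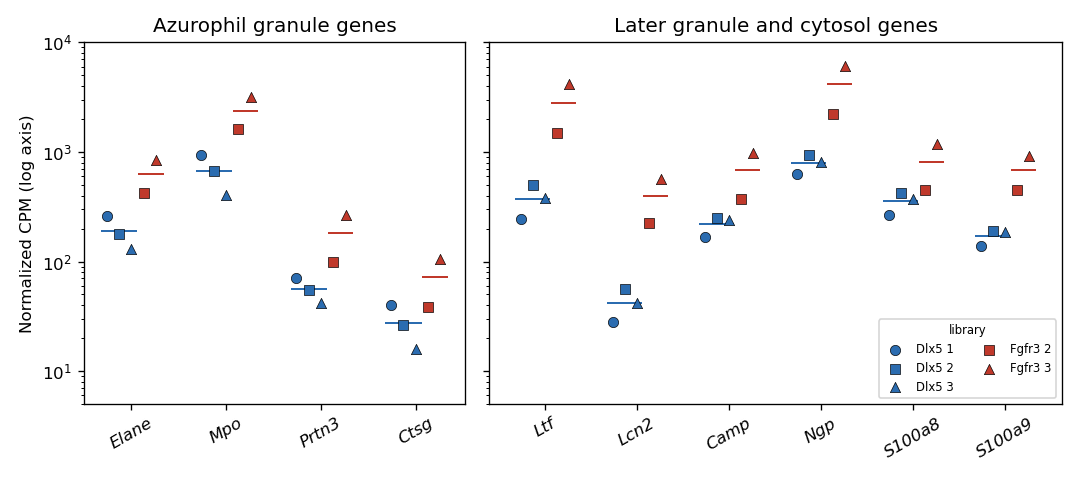
Normalized CPM on a log axis of each gene in each of the 5 libraries, azurophil genes on the left and later genes on the right, with horizontal lines at the lineage means. Blue points are Dlx5CE-E12.5 libraries and red points are Fgfr3CE-E12.5 libraries, with a symbol for each replicate, and the red points lie above the blue ones for every gene but Ctsg, where 38.5 CPM lies below 40.5 CPM.

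The later genes were all higher in Fgfr3CE-E12.5 cells, 6 of 6 against the 16.4% of tested genes called higher. The change ran from 2.29 times for S100a8 to 9.44 times for Lcn2. In each of the 6, both Fgfr3CE-E12.5 libraries were above all 3 Dlx5CE-E12.5 libraries, as were 34.8% of all tested genes.

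Ltf encodes lactoferrin, which binds iron and is the marker protein of specific granules, in 17 exons at chr9:111019271-111042767 (plus strand). Ltf stood at 245, 496 and 380 CPM in Dlx5CE-E12.5 replicates 1, 2 and 3 and at 1497 and 4148 CPM in Fgfr3CE-E12.5 replicates 2 and 3. Here replicate 1 was the lowest Dlx5CE-E12.5 library, the reverse of its place for the azurophil genes. From means of 374 ± 126 CPM (SD, n = 3) and 2823 ± 1875 CPM (SD, n = 2), the fitted log2 fold change was 2.92 (SE 0.46, adjusted p = 0.00229, edgeR).

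Lcn2 encodes lipocalin 2, which starves bacteria of iron by binding their siderophores, in 7 exons at chr2:32384633-32388252 (minus strand). It was at 27.9, 56.1 and 41.6 CPM in the Dlx5CE-E12.5 libraries against 226 and 563 CPM in the Fgfr3CE-E12.5 libraries. Lcn2 had the largest change of the 10 genes, with a log2 fold change of 3.24 (SE 0.43, adjusted p = 0.00111, edgeR).

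Camp encodes the cathelicidin precursor, whose cleaved peptide kills bacteria, in 4 exons at chr9:109847379-109849617 (minus strand). Its 5 values were 168, 251 and 241 CPM, then 375 and 981 CPM, and its log2 fold change was 1.62 (SE 0.39, adjusted p = 0.0123, edgeR). Ngp, which encodes neutrophilic granule protein, a cystatin-like relative of Camp, lies on the same chromosome in 4 exons at chr9:110419747-110423012 (plus strand). Ngp was at 635, 942 and 809 CPM and at 2227 and 6112 CPM, the highest CPM of any of the 10 genes in the Fgfr3CE-E12.5 libraries. Its log2 fold change was 2.39 (SE 0.41, adjusted p = 0.00307, edgeR).

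S100a8 and S100a9 encode the subunits of calprotectin, which binds calcium, zinc and manganese and makes up a large part of the neutrophil cytosol. Both have 3 exons and are neighbours on opposite strands, at chr3:90668978-90670035 and chr3:90692632-90695721. S100a8 was at 266, 425 and 376 CPM in Dlx5CE-E12.5 cells and at 450 and 1177 CPM in Fgfr3CE-E12.5 cells, so its lower Fgfr3CE-E12.5 library was close to the highest Dlx5CE-E12.5 library. Its log2 fold change of 1.19 (SE 0.39, adjusted p = 0.0407, edgeR) was the smallest of the called genes, and the call was lost whenever Fgfr3CE-E12.5 replicate 3 (0.34) or any of Dlx5CE-E12.5 replicates 1 (1.02), 2 (1.35) and 3 (1.24) was left out. S100a9 was at 138, 191 and 184 CPM against 445 and 917 CPM, with a log2 fold change of 1.99 (SE 0.31, adjusted p = 0.00211, edgeR). The subunits assemble as a pair, and their fitted changes lay on either side of the changes of Elane, Mpo and Prtn3.

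**Figure D2:**
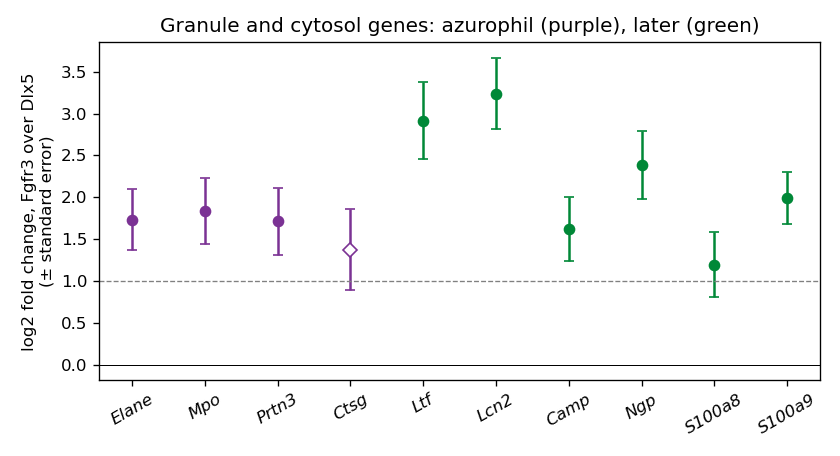
Log2 fold change of each gene, Fgfr3CE-E12.5 over Dlx5CE-E12.5, with bars of 1 standard error and a dashed line at the threshold of 1. Azurophil genes are purple and later genes green, filled where called; the values run from 1.19 (S100a8) to 3.24 (Lcn2), and Ctsg (open diamond, 1.37) was not called.

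In all, 9 of 10 genes were called higher and none lower, the direction of 13.1% of tested genes. Azurophil genes had a median log2 fold change of 1.72 and later genes of 2.19, against 0.01 for all tested genes. Within the later genes it was 2.65 for the specific granule genes and 1.59 for S100a8 and S100a9. The azurophil values span 1.37 to 1.84 and the later values 1.19 to 3.24, so the ranges overlap, with Ltf, Lcn2, Ngp and S100a9 above every azurophil gene and Camp and S100a8 below Elane, Mpo and Prtn3. Much of the size rests on a single library. Without Fgfr3CE-E12.5 replicate 3, 5 of 10 genes were called (Elane, Ltf, Lcn2, Ngp and S100a9), against 14.1% of tested genes called higher in that fit, and the medians were 0.99 for the azurophil and 1.43 for the later genes. Mpo (1.28), Prtn3 (0.83), Camp (0.77) and S100a8 (0.34) lost the call there.

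Levels of different genes were compared per kb of merged exon length, which counts the exons of every annotated transcript of a gene. It can exceed the length of the transcript that was made, so the comparison is rough. By this measure the later genes spread more widely than the azurophil genes. In Dlx5CE-E12.5 cells the mean level was 195 CPM per kb for Mpo and 193 for Elane, against 32.3 for Prtn3 and 26.7 for Ctsg. Of the later genes, Ngp (651 CPM per kb), S100a8 (512), S100a9 (328) and Camp (291) were above both, and Ltf (108) and Lcn2 (16.0) below. In Fgfr3CE-E12.5 cells Ngp was at 3412 CPM per kb, followed by S100a9 (1305), S100a8 (1173), Camp (894), Ltf (818), Mpo (697) and Elane (642), with Lcn2 (150), Prtn3 (106) and Ctsg (69.2) last. Neighbours in the first order differed by less than the larger SD of the pair for S100a9 and Camp, Mpo and Elane, Prtn3 and Ctsg, and Ctsg and Lcn2, and in the second for every pair but Elane and Lcn2.

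Among the Dlx5CE-E12.5 libraries, replicate 1 differed from the others in opposite directions for the stages. Replicate 1 had the highest level of 4 of 4 azurophil genes, as of 39.5% of all tested genes, and the lowest level of 6 of 6 later genes, as of 39.7%. The azurophil genes were at least 1.2 times higher in replicate 1 than in either other library for 4 of 4 genes, against 13.2% of tested genes, and the later genes at least 1.2 times lower for 6 of 6, against 14.9%. Replicate 1 over replicate 3 was 1.99 for Elane, 2.30 for Mpo, 1.695 for Prtn3 and 2.52 for Ctsg, and it was 0.647 for Ltf, 0.670 for Lcn2 and 0.785 for Ngp. This ratio to replicate 3 had a median of 2.15 over the azurophil genes, 0.702 over the later genes and 1 over all tested genes. Over replicate 2 the azurophil genes stood less far apart, from 1.301 (Prtn3) to 1.545 (Ctsg). The later genes ran there from 0.4945 (Ltf) to 0.7186 (S100a9). Genes of a set share their libraries and are no replicates of one another, and a single library stands on one side of each of these comparisons. Replicate 1 was singled out from these same values, and the shares were taken for that library alone. The fold of 1.2 lies under the ratio of every azurophil gene, so these counts are a description and not a test.

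The 2 Fgfr3CE-E12.5 libraries differed in the same direction for both stages. Replicate 3 was above replicate 2 for 10 of 10 genes, as for 48.5% of tested genes. It was at least 2-fold above for 3 of 4 azurophil genes and 6 of 6 later genes, against 2.49% of tested genes, and the remaining gene, Mpo, was at 1.94. The ratios ran from 1.94 (Mpo) to 2.77 (Ltf), and S100a9 (2.06) and Elane (2.00) were near the lower end. The median over all tested genes was 0.989.

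**Figure D3:**
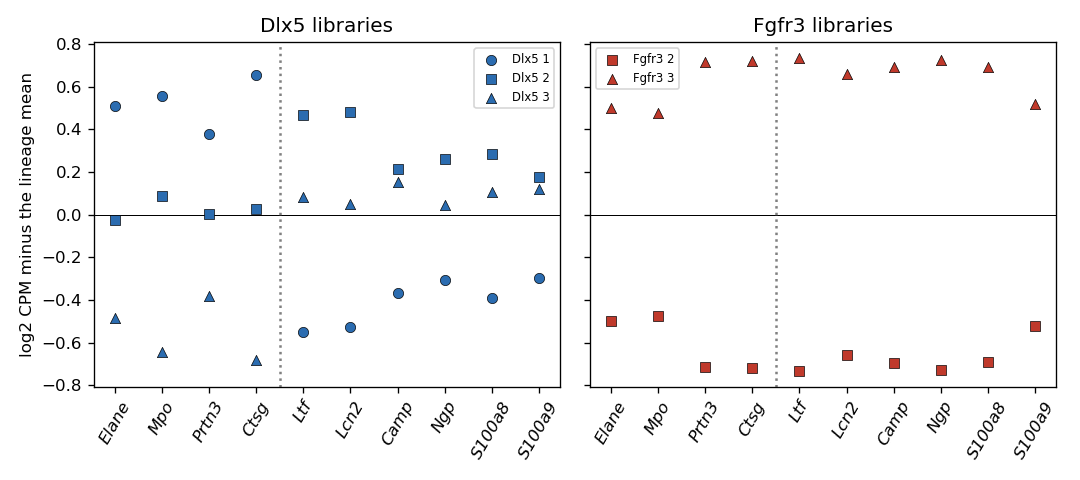
Log2 CPM of each gene minus the mean of its lineage, for the 3 Dlx5CE-E12.5 libraries (left) and the 2 Fgfr3CE-E12.5 libraries (right), with azurophil genes before the dotted line and later genes after it. Dlx5CE-E12.5 replicate 1 (circles) is the highest library for the 4 azurophil genes and the lowest for the 6 later genes, while Fgfr3CE-E12.5 replicate 3 (triangles) is above replicate 2 for all 10.

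The balance between the stages was then taken within each library, where depth and normalization cancel. For each 100 counts of the 6 later genes there were 88.0 azurophil counts in Dlx5CE-E12.5 replicate 1 (exact binomial 95% interval 86.8 to 89.2), 39.4 (38.8 to 40.1) in replicate 2 and 29.2 (28.6 to 29.7) in replicate 3. The Fgfr3CE-E12.5 libraries had 41.8 (41.6 to 42.1) in replicate 2 and 31.4 (31.2 to 31.5) in replicate 3, which is within the range of the Dlx5CE-E12.5 libraries. The mean log2 ratio was -1.10 (SD 0.82, n = 3) in Dlx5CE-E12.5 cells and -1.46 (SD 0.29, n = 2) in Fgfr3CE-E12.5 cells. The difference of -0.36 was less than the pooled SD of 0.69, and without Dlx5CE-E12.5 replicate 1 it was 0.09. The intervals cover counting error only, and the libraries of 1 lineage differ by far more than their intervals. A higher level of both stages in Fgfr3CE-E12.5 cells thus stood beside a balance that was not separated between the lineages, and with 3 libraries against 2 an exact permutation test, one-sided, cannot go under 0.1.

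The later genes were not uniform in this balance. Per 100 counts of Ltf, Lcn2, Camp and Ngp, the azurophil genes had 121, 53.4 and 40.3 counts in the Dlx5CE-E12.5 libraries and 50.5 and 37.0 in the Fgfr3CE-E12.5 libraries. Per 100 counts of S100a8 and S100a9 they had 323, 151 and 106 counts, and 244 and 208. The specific granule genes had 267, 283 and 263 counts for each 100 of S100a8 and S100a9 in Dlx5CE-E12.5 cells (exact binomial 95% intervals within 258 to 289), and 483 and 564 in Fgfr3CE-E12.5 cells (within 479 to 567). This ratio alone of the 4 was apart between the lineages, and it was nearly the same in the 3 Dlx5CE-E12.5 libraries. It was read after the values were seen. The ratio was not adjusted for merged exon length, by which S100a8 and S100a9 are the shortest of the 10 genes. With the length trend removed, the log2 fold changes of S100a8 and S100a9 rose to 1.59 and 2.54. Those of Ltf and Lcn2 fell to 2.74 and 3.1, and those of Camp and Ngp rose to 1.97 and 2.52. Whether the ratio is apart between the lineages after such a correction was not tested.

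**Figure D4:**
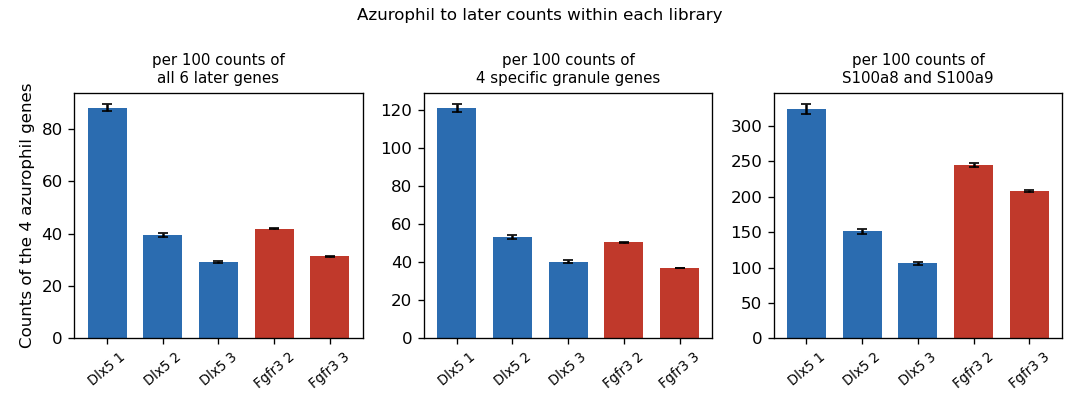
Counts of the 4 azurophil genes per 100 counts of all 6 later genes, of the 4 specific granule genes and of S100a8 with S100a9, in each library, on axes that start at 0 with exact binomial 95% intervals. Dlx5CE-E12.5 replicate 1 is the highest bar in each panel (88.0, 121 and 323), and both red Fgfr3CE-E12.5 bars lie below it in every panel, above the other blue bars only against S100a8 with S100a9 (244 and 208).

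Genes that act with the azurophil proteins were mixed. Of 6 such genes, 3 were higher and 0 lower, against 16.4% and 13.1% of all tested genes, with a median log2 fold change of 1.04. Ctsc, whose product activates the granule serine proteases, rose by 1.24 (SE 0.14, adjusted p = 0.000531, edgeR). Cd63, a granule membrane protein that many cells carry, had a log2 fold change of 0.29 (adjusted p = 0.132, edgeR), and Gstm1 of -0.48 was under the fold threshold. Serpinb1a, an inhibitor of elastase and its relatives, rose by 2.48, and Ms4a3, a gene of granulocyte-monocyte progenitors, by 2.05. These 2 were picked after their values were seen, and Ms4a3 met the filter through the Fgfr3CE-E12.5 libraries. Ms4a3 was at 23.9, 9.86 and 8.62 CPM in the Dlx5CE-E12.5 libraries, highest in replicate 1 like the azurophil genes. The list as a whole did not share this, with 3 of 6 genes highest and 3 lowest in that library. Of all tested genes, 39.5% were highest and 39.7% lowest there.

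Other genes of the specific granule stage were higher in 9 of 10 tested, against 16.4% of all tested genes. Of these 10, 2 (Itgb2l and Olfm4) met the filter through the Fgfr3CE-E12.5 libraries, where they were high. Among the Dlx5CE-E12.5 libraries, replicate 1 was the highest for 4 of the 10 and the lowest for 5. The shares over all tested genes were 39.5% and 39.7%, so the low place of the later genes there was not general to this stage. Lyz2 (lysozyme) rose by 2.81 and Chil3 by 2.59, although 15.4% of the windows of Lyz2 and 26.9% of those of Chil3 are shared with other genes. Hp, which encodes haptoglobin, was the exception and fell by 1.73 on the log2 scale (adjusted p = 0.000445, edgeR), from 3297 to 3555 CPM in Dlx5CE-E12.5 cells to 938 and 1143 CPM. Hp was thus more abundant in the Dlx5CE-E12.5 libraries than any of the 10 granule genes, and its Fgfr3CE-E12.5 libraries differed by 1.22 times. Haptoglobin is also made by fat cells and liver.

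Gelatinase granule, secretory vesicle and mature neutrophil genes were higher in 15 of 15 tested, against 16.4% of all tested genes. Their median log2 fold change was 2.21. Without Fgfr3CE-E12.5 replicate 3, 8 were called. Itgb2, the beta chain of the leukocyte integrins, rose by 2.30 and Retnlg by 1.68. Mmp9, the gelatinase that names these granules and that osteoclasts also make, rose by 5.14, and its levels of 2617 and 2587 CPM in the Fgfr3CE-E12.5 libraries differed by 0.988 times where the 10 granule genes differed by 1.94 to 2.77 times. Ly6g, the surface marker of mature mouse neutrophils, was picked after its values were seen; it was at 0.824, 3.12 and 3.39 CPM and at 16.8 and 43.4 CPM, lowest in Dlx5CE-E12.5 replicate 1. Of these 15 genes, 4 (Cxcr2, Fpr1, Ly6g and Wfdc21) met the filter through the Fgfr3CE-E12.5 libraries, where they were high. In Dlx5CE-E12.5 replicate 1, 7 of the 15 were lowest and 2 highest, against 39.7% and 39.5% of all tested genes. The stefin A genes, related copies of which 5 of 6 share 14.2% to 36.2% of their windows with other genes and Stfa3 none, were low in Dlx5CE-E12.5 cells and are given as levels only. BC100530 was at 1.85, 2.68 and 1.38 CPM and at 12.6 and 86.6 CPM, Gm5483 at up to 0.753 CPM against 3.59 and 18.1 CPM, and Stfa1 at up to 0.670 CPM against 3.81 and 14.2 CPM.

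Among transcription factors of granulocyte development, 5 of 8 tested were higher (Cebpb, Cebpe, Spi1, Myb and Irf8) and 1 was lower. Of all tested genes, 16.4% were called higher and 13.1% lower. Cebpb, Cebpe and Myb met the filter through the Fgfr3CE-E12.5 libraries. Cebpb drives granulopoiesis in infection and also acts in fat and bone cells. It rose by 7.63, from 2.37, 4.56 and 6.19 CPM, with little difference between the Fgfr3CE-E12.5 libraries (837 and 889 CPM). Of its windows, 18.1% are shared with other genes. What part this sharing or the sequencing has in the change was not tested. Cebpd had a log2 fold change of 0.13 (adjusted p = 0.898, edgeR) with 896 CPM in Dlx5CE-E12.5 replicate 3 against 149 and 186 CPM in the others, and Runx1 fell by 1.03. Cebpe and Myb were chosen after their values were seen, as factors of the specific granule stage and of early precursors. Cebpe was at 5.90, 6.69 and 10.1 CPM and at 23.6 and 66.0 CPM, lowest in Dlx5CE-E12.5 replicate 1 as the later genes were. Myb was at 17.0, 5.06 and 5.61 CPM and at 57.9 and 88.3 CPM, highest in Dlx5CE-E12.5 replicate 1 as the azurophil genes were. Over the 8 tested factors, 6 were lowest and 2 highest in that library, against 39.7% and 39.5% of all tested genes.

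Markers of other cell types moved with these genes, and their part in the results was not tested. All 10 pan-leukocyte markers were higher in Fgfr3CE-E12.5 cells, against 16.4% of all tested genes, and 1 of them (Cytip) met the filter through the Fgfr3CE-E12.5 libraries. Their summed level was 382 to 481 CPM in the Dlx5CE-E12.5 libraries against 1250 and 2575 CPM. The most abundant, Lcp1, Coro1a and Rac2, rose by 2.43, 2.19 and 2.23. Of these 10, 10 were higher in Fgfr3CE-E12.5 replicate 3 than in replicate 2, against 48.5% of all tested genes. In Dlx5CE-E12.5 replicate 1, 7 were highest, against 39.5%. Monocyte and macrophage markers were higher in 8 of 10 tested (4 without Fgfr3CE-E12.5 replicate 3; 4 of the 10 met the filter through the Fgfr3CE-E12.5 libraries), with summed levels of 139 to 183 CPM against 369 and 567 CPM, led by F13a1, Ly6c2 and Csf1r. Of these 10, 1 was highest and 6 were lowest in Dlx5CE-E12.5 replicate 1, against 39.5% and 39.7% of all tested genes. Progenitor markers were higher in 3 of 3 tested (Kit, Cd48 and Gata2, the last named after its values were seen, with Cd34 under the filter, and all 3 met the filter through the Fgfr3CE-E12.5 libraries), and their sum was 25.1, 18.6 and 12.6 CPM against 116 and 102 CPM. Kit, at 64.6 and 42.4 CPM, was lower in Fgfr3CE-E12.5 replicate 3 than in replicate 2, the reverse of the granule genes.

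Eosinophil, basophil and mast cell markers were uneven between libraries. Their sum was 519, 262 and 255 CPM in the Dlx5CE-E12.5 libraries and 200 and 1515 CPM in the Fgfr3CE-E12.5 libraries, and 0 of 4 tested were called (2 without Dlx5CE-E12.5 replicate 1, and 2 without Fgfr3CE-E12.5 replicate 2). All 4 were highest in Dlx5CE-E12.5 replicate 1, against 39.5% of all tested genes. Prss34 of basophils was at 78.5 CPM there against 9.47 and 1.55 CPM. Prg2 and Epx of eosinophils differed by 12.4 and 20.8 times between the Fgfr3CE-E12.5 libraries. Among erythroid markers 8 of 8 were highest in Dlx5CE-E12.5 replicate 1, again against 39.5%, with Hbb-bs, Hba-a1 and Hba-a2 as the most abundant. By call, 0 were higher and 2 lower (Hba-a1 and Hbb-bt) in Fgfr3CE-E12.5 cells, against 16.4% and 13.1% of all tested genes. Those calls are uncertain by gene, since 72.3% of the windows of Hba-a1 are shared with Hba-a2 (log2 fold change 0.29) and 58.3% of those of Hbb-bt with Hbb-bs (-0.71), neither of which was called. Of the B lineage markers, Cd79a and Cd79b were not called, and Ebf1, which stroma also expresses, was lower. Of T and NK cell markers only Nkg7 passed the filter, and Nkg7 was called higher, a call lost without Dlx5CE-E12.5 replicate 2, without Fgfr3CE-E12.5 replicate 3 and when tested against 2-fold. Cd3d and Gzma, under the filter, were nevertheless at higher levels in Fgfr3CE-E12.5 cells, Cd3d at 0.892 to 1.72 CPM against 2.84 and 6.52 CPM and Gzma at up to 0.149 CPM against 3.33 and 5.08 CPM. The T cell receptor genes Cd3e and Cd3g were at or near 0, with 0.730 CPM and 0.415 CPM as their highest values. The endothelial marker Pecam1 had a log2 fold change of 0.94 and was not called, and Emcn and Kdr were below the filter. Cdh5, also below it, was at 7.83, 4.06 and 1.72 CPM and at 1.13 and 1.16 CPM. In the fit with a CPM minimum of 1, Cdh5 was called lower (log2 fold change -2.01, adjusted p = 0.0484, edgeR).

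Stromal markers went the other way. Of 9, 5 were lower (Cxcl12, Kitl, Adipoq, Ebf3 and Pdgfra) and 1, Foxc1, was higher in Fgfr3CE-E12.5 cells. Of all tested genes, 13.1% were called lower and 16.4% higher. Lepr, Pdgfrb and Prrx1 were not called. The sum of the 9 was 30600 to 31840 CPM against 12560 and 8516 CPM. Most of it was Cxcl12, at 22364 to 23577 CPM against 8488 and 6104 CPM. Cxcl12, Kitl and Adipoq fell by 1.67, 2.80 and 1.76 on the log2 scale. Between the Fgfr3CE-E12.5 libraries the median stromal marker in replicate 3 was 0.639 times its level in replicate 2, where the granule genes were 1.94 to 2.77 times. The sorting description names GFP and tdTomato, and the purity after sorting was not determined.

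**Figure D5:**
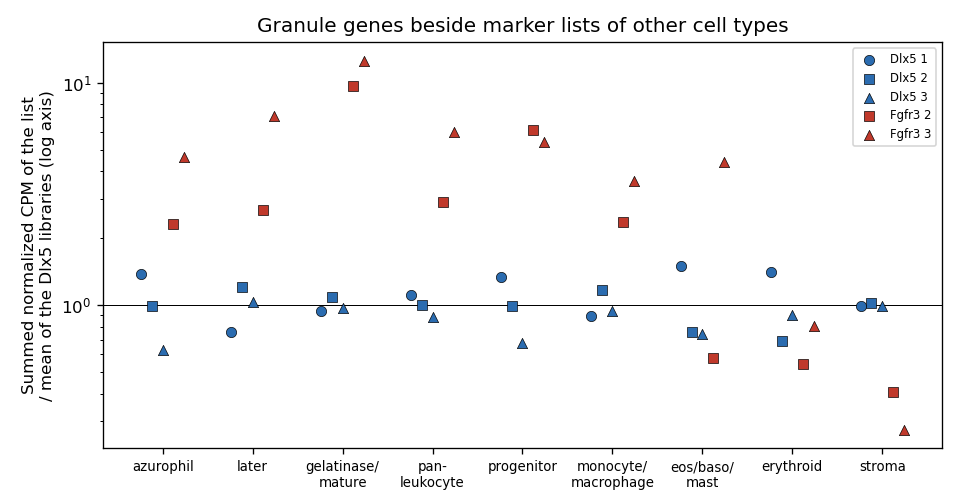
Summed normalized CPM of each gene list in each library, divided by the mean of the Dlx5CE-E12.5 libraries, on a log axis with a line at 1. Cxcl12 makes up most of the stromal sum. The Fgfr3CE-E12.5 libraries (red) are above the Dlx5CE-E12.5 libraries (blue) for azurophil, later, gelatinase, pan-leukocyte, progenitor and monocyte genes and below them for stromal genes (12560 and 8516 CPM), while eosinophil, basophil and mast cell markers differ most between the red points (200 and 1515 CPM).

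The tested genes whose pattern over the 5 libraries was nearest to each stage were found by the root mean square distance between centred log2(CPM + 1) values. Nearest to the mean azurophil pattern were Slco4a1 (distance 0.083), Il16 (0.089), Nkg7 (0.12), Apol6 (0.141) and Lilr4b (0.15). Nearest to the mean pattern of the later genes were Pstpip1 (0.0425), A530064D06Rik (0.0705), Lgals3 (0.09), Ccr2 (0.11) and Adam8 (0.115). The lists share no gene, and with 5 libraries such likeness rests on few values.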

How the data were processed

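Cxcl12-GFP(high) tdTomato+ cells were sorted from pooled P21 femurs into 3 Dlx5CE-E12.5 and 2 Fgfr3CE-E12.5 libraries, amplified with a SMART-Seq kit and prepared with Nextera XT, which does not mark strand. The values used are raw read counts per gene as deposited by the authors. The submitters' processing notes name TopHat2 2.0.13, Bowtie2 2.2.1, HTSeq and mm10; the counting settings are not given in the sources used here. Size-factor and rlog versions of the same counts were not used.

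Groups came from the sample labels. Replicates differed by more than sampling noise, so each counted as 1 sample. Symbols and coordinates came from GENCODE M21 on GRCm38 (29996 identifiers found, 45 not found). Protein-coding genes and 5 reporter sequences (17120 in all) were kept where 2 or more libraries had a CPM of 10 or more, and were fitted by edgeR 4.0.16 (R 4.3.3) with TMM factors, the quasi-likelihood test, lineage as the only term and Benjamini-Hochberg adjustment. A gene was called if its adjusted p was under 0.05 and its log2 fold change above 1 in size. In simulated data for this comparison, 200 of 200 changed genes were called and 0 unchanged genes, among 10093. The median error there was 0.037, against a median standard error of 0.2 over the tested genes. The simulation thus does not measure power or false calls at the noise of the real libraries. No set tests were run. The count over the B lineage markers is not reported here. Reads carry no molecular identifiers, so intervals and the limit of 3 counts cover counting error only.

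The members, gene lists and motifs were chosen with earlier results of these data known. The text names every member, the 3 genes of highest mean CPM in each list with any gene called against the list's median, and the 5 nearest profiles. Alternatives were DESeq2 1.42.0 size factors and Wald test, library size alone, the exact test, other filters, all features and other call rules. Further ones were trends on GC content and merged exon length, a replicate block and each library left out.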

Additional observations from a re-analysis of the deposited data

How the results depend on the processing

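Lcn2, Ltf, Ngp and S100a9 were called under each of the 17 alternatives, and no gene's direction reversed. The number of genes called was 9 in the reported fit, 4 when the change was tested against 2-fold (10% of all tested genes called higher), and 5 to 10 with a library left out (14.1% to 17% of all tested genes). Of the azurophil genes 0 were called against 2-fold and 1 to 4 with a library left out, and of the later genes 4 to 6. Leaving out a library gave azurophil medians of 0.99 to 2.19, later medians of 1.43 to 2.68 and a difference of the log2 ratio of -0.70 to 0.09. The lowest medians and the counts of 5 and 1 were those without Fgfr3CE-E12.5 replicate 3, and 0.09 was without Dlx5CE-E12.5 replicate 1. With S100a8 and S100a9 as the only later genes, that difference was 0.38. The cause of these shifts was not tested. Over the alternatives the adjusted p was 7.67e-06 to 0.0768 for Elane, 5.89e-06 to 0.071 for Mpo, 8.38e-05 to 0.11 for Prtn3, 8.08e-05 to 0.13 for Camp, 0.00915 to 0.45 for Ctsg and 0.00315 to 0.533 for S100a8. The replicate numbers refer to different pools, and the deviations of same-numbered libraries correlated at 0.13 and -0.05. With the replicate number as a block, 8 genes were called (16.7% of all tested genes), S100a8 being lost at 0.87 (adjusted p = 0.136, edgeR), and the medians were 1.86 and 1.92.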
